A study of Mus musculus with 8 samples.

Results

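Galectin-1 (Lgals1), the S100 protein S100a10 and 6 annexins (Anxa2, Anxa4, Anxa5, Anxa6, Anxa7 and Anxa11) were followed across 8 libraries of ribosome-associated mRNA from mouse spinal cord. The 8 genes were taken by symbol out of 38924 gene identifiers in the files, and all 8 were among the 15208 genes tested. They were chosen by name, with their counts in the 4 groups already known, so the comparison of Cre with no-Cre mice is given for them as a description and without a test.

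Galectin-1 is a small lectin that binds beta-galactosides on glycoproteins, acts both inside and outside the cell, and has been linked to axon regrowth after nerve injury. S100a10, also called p11, is an S100 protein that does not need calcium to bind its partner. It joins annexin A2 in a complex that sits between membranes, the actin cytoskeleton and ion channels or receptors on their way to the cell surface. Annexins bind acidic phospholipids when calcium rises, and several of them gather at damaged plasma membrane during its repair.

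All mice had the strain background B6.CgxB6.129 and carried 1 Rpl22 allele whose ribosomal protein gains an HA tag in cells with Cre, and the design text gives them as Gars+/+. The genotype was Rpl22 +/- in all, with Chat +/- in Cre mice and Chat +/+ in no-Cre mice. Cre came from the Chat locus, which is active in cholinergic neurons, so the tag is not limited to the motor neurons whose axons run in the sciatic nerve. Crushed mice were animals 35 (18 weeks) and 52 (9 weeks) with Cre and animals 51 and 58 (9 weeks) without. Uncrushed mice, all 8 weeks old, were animals 10 and 3 with Cre and animals 4 and 6 without. The sciatic nerve was crushed on 1 side and each library came from a whole cord, so motor neurons of the other side were sampled too. The labels do not give the time between crush and collection. Crush cannot be told apart from age, nor from a number that all uncrushed titles carry. The genotype entry goes against the title for Cre uncrushed animal 3 (Chat +/+) and no-Cre uncrushed animal 4 (Chat +/-), and the groups follow the titles.

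Library totals ran from 4826979 to 11522721 expected counts. Chat, which makes acetylcholine, was at 78.2, 90.9, 97.7 and 126 CPM in the 4 Cre libraries, against 3.83 to 5.16 CPM in the 4 no-Cre libraries. CPM are depth-scaled counts after normalisation by TMM, which sets the typical gene equal between libraries. The no-Cre libraries hold mRNA that came down without the tag. Summed motor neuron markers were 1690 to 2060 CPM with Cre, against 63.2 to 163 CPM without. Summed markers of oligodendrocytes ran the other way, at 720 to 1850 CPM with Cre and 4690 to 7910 CPM without. In whole-cord precipitates, fewer cells of a type and less RNA per cell cannot be told apart.

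Lgals1 had 157 and 111 CPM in Cre crushed cords and 2.85 and 5.00 CPM in no-Cre crushed cords. It had 136 and 131 CPM in Cre uncrushed cords and 7.80 and 5.88 CPM in no-Cre uncrushed cords. All 4 Cre libraries lay far above all 4 no-Cre libraries, and the crushed and uncrushed Cre values overlapped. The log2 fold change of Cre over no-Cre was 5.11 ± 0.33 (SE) in crushed and 4.31 ± 0.33 in uncrushed mice. The Cre values rest on 1043 to 2480 counts, the no-Cre values on 21 and 30 counts in crushed and 20 and 22 in uncrushed cords.

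S100a10 had 130.2 and 86.6 CPM in Cre crushed cords and 4.48 and 8.16 CPM in no-Cre crushed cords. Uncrushed cords held 81.7 and 74.3 CPM with Cre and 7.80 and 5.88 CPM without. Here too the Cre libraries stood apart from the no-Cre libraries. Cre over no-Cre came to 4.11 ± 0.34 in crushed and 3.53 ± 0.35 in uncrushed mice (log2 fold change ± SE). Both Cre crushed libraries were above both Cre uncrushed libraries, the lower of them by a small margin.

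Anxa2, the partner of S100a10, had 189 and 158 CPM in Cre crushed cords and 10.3 and 29.0 CPM in no-Cre crushed cords. Uncrushed cords held 168 and 149 CPM with Cre and 17.2 and 24.8 CPM without. The groups with and without Cre did not overlap, and as a ratio the no-Cre crushed libraries differed from each other more than the 2 mice of any other group. The log2 fold change of Cre over no-Cre was 3.15 ± 0.40 in crushed and 2.90 ± 0.41 in uncrushed mice.

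Per unit of transcript length, the S100a10 and Anxa2 mRNAs were of similar level, and their ratio varied. The ratio of deposited TPM, a level per length within a library, was 1.72 and 1.37 in Cre crushed cords and 1.16 and 0.745 in no-Cre crushed cords. It was 1.2 and 1.23 in Cre uncrushed cords and 1.15 and 0.540 in no-Cre uncrushed cords. Both Cre crushed values were above both Cre uncrushed values, and all 4 Cre values were above all 4 no-Cre values. The nearest Cre and no-Cre values were 1.2 and 1.16. In the no-Cre libraries the ratio rests on 33, 49, 20 and 22 counts of S100a10 and 76, 174, 44 and 93 of Anxa2. Mean ratios were 1.55 ± 0.25 in Cre crushed and 1.22 ± 0.02 in Cre uncrushed cords (SD, n = 2 each). With 2 animals a group an exact test of this ratio cannot pass. CPM per kilobase of effective length gave the same ratios, which is no separate check. Within a library both measures divide the same counts by the same lengths.

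Anxa6, a large annexin with a doubled annexin core that binds membranes and the cytoskeleton, showed the smallest spread among no-Cre crushed mice. It reached 436 and 414 CPM in Cre crushed cords, against 40.0 and 39.7 CPM in no-Cre crushed cords. In uncrushed cords it was at 359 and 459 CPM with Cre, against 37.0 and 44.1 CPM without. The 4 no-Cre values lay close together, and so did the 2 Cre groups, whose values overlapped. Cre over no-Cre was 3.42 ± 0.25 in crushed and 3.33 ± 0.25 in uncrushed mice (log2 fold change ± SE).

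Anxa4 had 58.9 and 44.9 CPM in Cre crushed cords and 9.50 and 12.5 CPM in no-Cre crushed cords, and 69.3 and 64.1 CPM with Cre and 15.2 and 11.8 CPM without in uncrushed cords. It was the 1 gene of the 8 with both Cre crushed libraries below both Cre uncrushed libraries. Anxa7 had 66.9 and 70.2 CPM in Cre crushed cords and 11 and 16.8 CPM in no-Cre crushed cords, and 62.7 and 70.4 CPM with Cre and 16.4 and 18.2 CPM without in uncrushed cords. Its Cre groups overlapped. The log2 fold change of Cre over no-Cre was 2.24 ± 0.27 in crushed and 2.32 ± 0.28 in uncrushed mice for Anxa4. It was 2.31 ± 0.26 in crushed and 1.94 ± 0.27 in uncrushed mice for Anxa7, which binds and aggregates vesicle membranes.

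Anxa5, whose protein binds phosphatidylserine on dying cells and damaged membrane, had the smallest difference between Cre and no-Cre cords among the genes with ample counts. It had 164 and 144 CPM in Cre crushed cords, against 38.0 and 75.6 CPM in no-Cre crushed cords. It had 156 and 153 CPM in Cre uncrushed cords, against 81.9 and 71.6 CPM in no-Cre uncrushed cords. The Cre values were still above all no-Cre values, by 1.44 ± 0.30 in crushed and 1.01 ± 0.30 in uncrushed mice (log2 fold change ± SE).

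Anxa11, an annexin that tethers RNA granules to lysosomes and is mutated in some families with amyotrophic lateral sclerosis, was near the detection limit. It had 2.47 and 2.69 CPM in Cre crushed cords and 1.63 and 0.17 CPM in no-Cre crushed cords. In uncrushed cords it had 2.60 and 2.82 CPM with Cre and 0.78 and 3.47 CPM without. The uncrushed groups overlapped, since no-Cre uncrushed animal 6 was the highest of all 8 libraries. Its no-Cre values rest on 12, 1, 2 and 13 counts, and 3 counts correspond to 0.19 to 1.17 CPM across the libraries. Anxa11 also shares 14.5% and 13.2% of its 50-base words with the pseudogenes Gm2260 and Gm2274 in GENCODE M21, and it has an antisense neighbour, Anxa11os. Its reads may be split with these, so its level is uncertain. Anxa2 and Anxa4 also have a transcript on the opposite strand (Gm16144 and Gm44036), and the sources used here do not say whether the counting used strand.

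**Figure D1:**
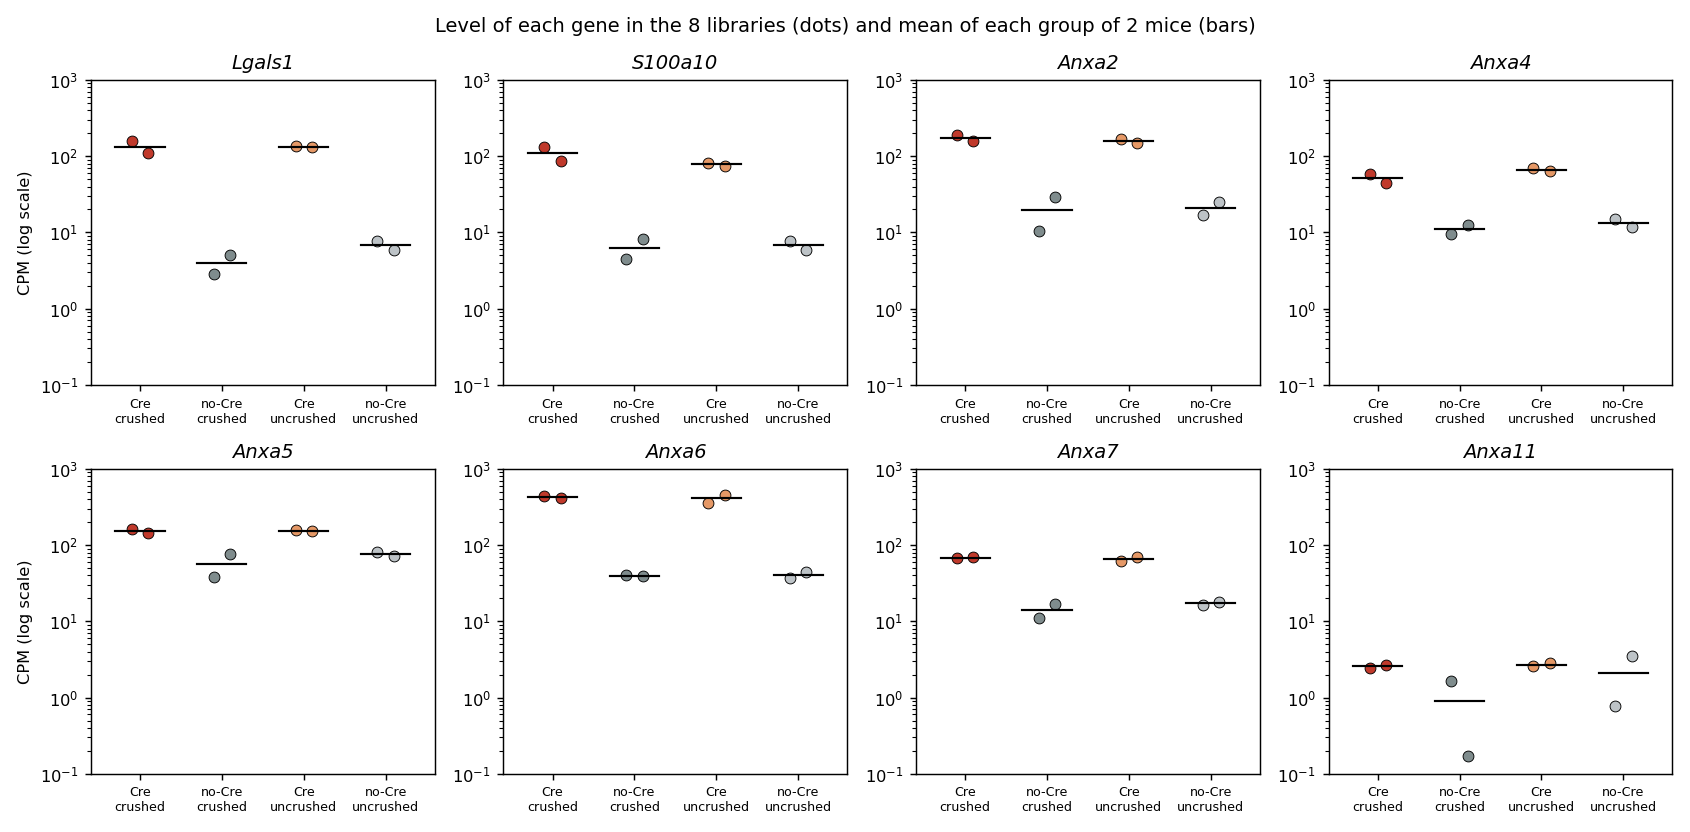
Level of each of the 8 genes in CPM (TMM-scaled, log axis) in the 4 groups of cords. Dots are single mice and bars are means of 2 mice. Lgals1 and S100a10 show the widest gap between Cre and no-Cre mice, and Anxa11 lies below 4 CPM throughout.

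Between Cre and no-Cre mice, 8 of 8 genes in crushed cords and 7 of 8 in uncrushed cords had both Cre libraries above both no-Cre libraries, Anxa11 being the exception. Of all genes tested, 37.9% in crushed and 36.2% in uncrushed cords did so. Since the genes were chosen with these values known, the counts describe the choice. The differences ran over a wide range, with medians of 2.73 in crushed and 2.61 in uncrushed mice (log2), against medians of -0.08 and -0.03 over all genes tested. By size of the log2 fold change Lgals1 ranked 39 in crushed and 114 in uncrushed mice from the top of the 15208 genes. S100a10 ranked 62 and 174, Anxa6 119 and 203, Anxa2 159 and 292, and Anxa5 1859 and 3312, in the same order of conditions.

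Where markers of other cell types were called, they moved against the 8 genes. In crushed cords the called genes of the lists for oligodendrocytes (8 of 8), endothelial cells and pericytes (8 of 8), microglia (7 of 10), astrocytes (6 of 7), fibroblasts (4 of 7), Schwann cells (3 of 5) and blood (5 of 5) were all lower with Cre. Uncrushed cords gave 8 of 8, 7 of 8, 8 of 10, 7 of 7, 4 of 7, 5 of 5 and 5 of 5 lower, and none of these lists had a gene called higher. Of 5 interneuron markers, 3 were called lower in crushed and 4 in uncrushed cords, and none higher. Of 5 sensory ganglion markers tested, 0 were called in crushed cords and 1 was called lower in uncrushed cords. Over all genes tested, 21.3% were called lower in crushed and 21.9% in uncrushed cords. Lgals1, S100a10 and Anxa2 are also known from sensory ganglion neurons. Summed markers of these neurons were 12.1 and 1.66 CPM in Cre crushed and 1.63 and 32.3 CPM in no-Cre crushed cords. They were 6.5 and 1.56 CPM in Cre uncrushed and 32.8 and 40.3 CPM in no-Cre uncrushed cords. The part of these cells in the values of the 8 genes was not tested.

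Within a library, levels of different genes can be ordered by deposited TPM. In Cre crushed animal 35 the order was S100a10 (589 TPM), Lgals1 (579), Anxa6 (435), Anxa2 (342), Anxa5 (251), Anxa4 (131), Anxa7 (57.5) and Anxa11 (2.59). Cre crushed animal 52 had Anxa6 (423 TPM), Lgals1 (418) and S100a10 (400) within a narrow range, followed by Anxa2 (292), Anxa5 (225), Anxa4 (103), Anxa7 (61.8) and Anxa11 (2.84). The order of the last 5 genes was the same in both uncrushed Cre libraries. The top 3 could not be ranked, since Lgals1 led in Cre uncrushed animal 10 (306 TPM) and animal 3 (376 TPM) and S100a10 had 225 and 260 TPM there. Anxa6 had 221 and 358 TPM in the same cords.

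The mix of annexin mRNAs differed between Cre and no-Cre cords. Anxa5 held 20.6% and 20.3% of the summed TPM of the 6 annexins in Cre crushed cords, against 40.1% and 49.0% in no-Cre crushed cords. It held 21.4% and 20.0% in Cre uncrushed cords, against 54.0% and 46.7% in no-Cre uncrushed cords. Its share thus stayed within a narrow range in all 4 Cre libraries and was higher in each no-Cre library. Anxa6 held 35.7% and 38.2% in Cre crushed cords and 27.7% and 16.9% in no-Cre crushed cords. In uncrushed cords its shares were 32.0% and 39.1% with Cre and 16.1% and 18.7% without, so that Anxa6 led with Cre and Anxa5 led without. The sum of the 6 was 1219 and 1108 TPM in Cre crushed cords and 159 and 128 TPM in no-Cre crushed cords. In uncrushed cords it was 692 and 916 TPM with Cre and 60.2 and 87.6 TPM without. These sums carry no TMM scaling, so they do not measure a change with crush. In the TMM-scaled fit the log2 fold changes of the annexins with crush ran from -0.36 (Anxa4) to 0.13 (Anxa2) in Cre mice. In no-Cre mice they ran from -1.25 (Anxa11) to -0.03 (Anxa6).

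**Figure D2:**
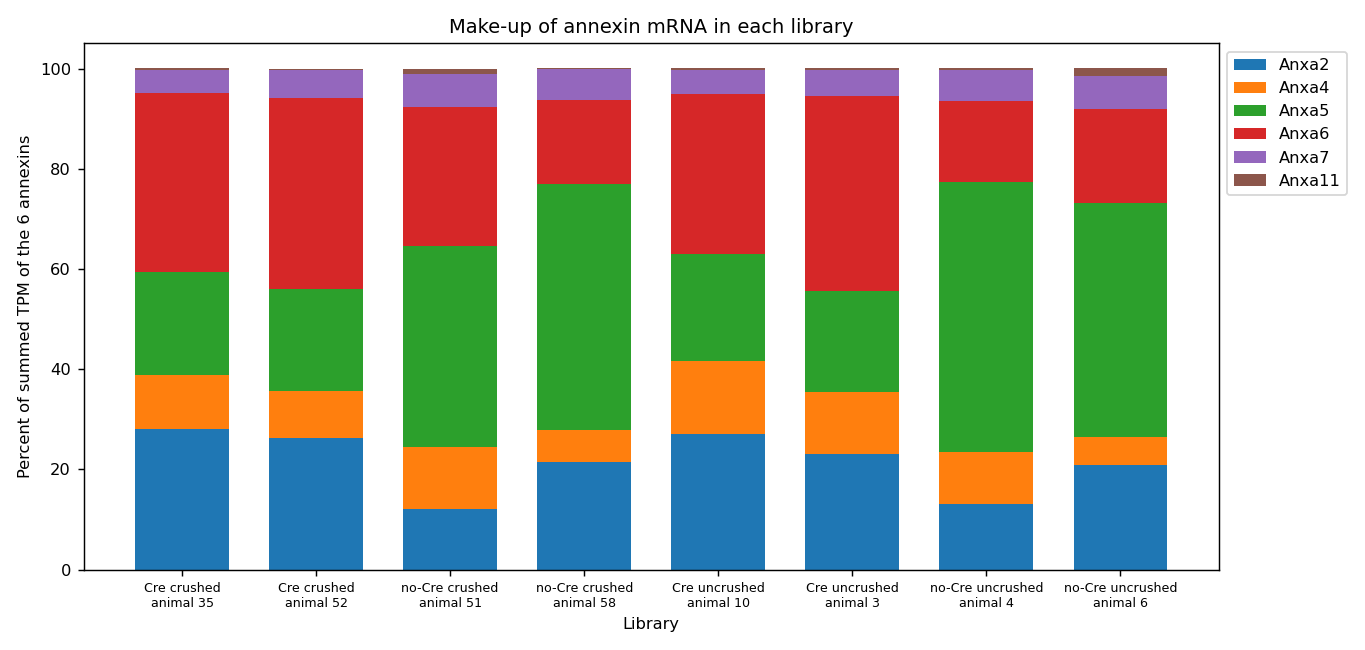
Percent of the summed TPM of the 6 annexins held by each of them, in each of the 8 libraries. Anxa6 is the widest band in the Cre libraries (32.0% to 39.1%), and Anxa5 in the no-Cre libraries (40.1% to 54.0%).

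The crush comparison asked which mRNAs change after nerve injury in precipitates enriched for cholinergic neurons, and none of the 8 genes passed the test in it. In Cre mice, 11 of 15208 genes (0.0723%) passed edgeR's quasi-likelihood test at a Benjamini-Hochberg adjusted p of 0.05, and 0 of the 8 did. None of the 8 had an unadjusted p under 0.05 in this fit, and DESeq2 called 0 of the 8 as well. In edgeR on the Cre libraries alone S100a10 had an unadjusted p of 0.0405 (adjusted p = 0.227). With edgeR scaled by library totals its unadjusted p was 0.0172 (adjusted p = 0.363). Their median log2 fold change of crushed over uncrushed was 0.02, against 0.03 over all genes tested. Scaled by library totals alone, all 8 were positive (0.08 to 0.92), where the median of all genes was 0.47.

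Lgals1 did not move in Cre mice beyond the spread between animals, at 0.00 ± 0.26 (95% interval -0.57 to 0.58, adjusted p = 0.999 by edgeR). S100a10 had the largest positive value, 0.48 ± 0.28 (interval -0.15 to 1.10, adjusted p = 0.679), and Anxa4 the largest negative one, -0.36 ± 0.25 (interval -0.90 to 0.18, adjusted p = 0.738). These are the 2 genes whose crushed and uncrushed Cre libraries did not overlap. Of all genes, 26.1% had both crushed libraries above both uncrushed ones in Cre mice and 23.9% had both below. The remaining 5 genes lay between -0.07 (Anxa11) and 0.13 (Anxa2). Anxa11 had by far the widest interval, -1.83 to 1.68, while that of Anxa6 was -0.44 to 0.55 and that of Anxa7 -0.48 to 0.57.

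In the same libraries, some genes known to respond to axon injury were called and others were not. Among those not called in the fit reported here were Gal, Gap43 and Jun. Their log2 fold changes in Cre mice were 3.49 ± 0.57, 1.25 ± 0.33 and -0.13 ± 0.27 (edgeR adjusted p = 0.0783, 0.229 and 0.936). Gal was called in 6 of the alternatives, Gap43 in 3 and Jun in 0. Sprr1a, a cornifin family gene of regenerating neurons, had 193 and 133 CPM in Cre crushed and 0.26 and 0.29 CPM in Cre uncrushed cords. Its log2 fold change was 9.12 ± 0.58 (edgeR adjusted p = 6.83e-05). Atf3, a stress transcription factor, had 51.5 and 35.8 CPM in Cre crushed cords and 0.26 and 0.00 CPM in Cre uncrushed cords, with an adjusted p of 0.000618 in edgeR; both genes were called in 15 of 15 alternatives. Of 8 injury genes, 3 were called higher in Cre mice (Sprr1a, Atf3 and Npy) and none lower, and the count was 2 without both libraries of contradictory genotype. The call of Npy, a neuropeptide, was lost without Cre crushed animal 35, Cre uncrushed animal 10 or Cre uncrushed animal 3 (adjusted p up to 0.308 over all alternatives).

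No marker of another cell type was called between Cre crushed and Cre uncrushed cords. The median log2 fold changes of crushed over uncrushed were 1.38 for endothelial cells and pericytes, 1.25 for Schwann cells, 1.03 for microglia, 0.87 for oligodendrocytes and 0.82 for astrocytes. They were 0.50 for sensory ganglion neurons, 0.35 for fibroblasts, 0.28 for interneurons, -0.24 for motor neurons and -0.49 for blood. Summed microglia markers were 13.9 and 17.4 CPM in Cre crushed and 7.16 and 7.21 CPM in Cre uncrushed cords. Their part in the values of the 8 genes was not tested.

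In no-Cre mice, 11 of 15208 genes (0.0723%) were called with crush, and 0 of the 8 genes were, by edgeR or by DESeq2. All 8 log2 fold changes were negative, from -1.25 (Anxa11) to -0.03 (Anxa6), with a median of -0.30 against -0.03 over all genes. With libraries scaled by total alone, 7 of the 8 were positive, since the median of all genes then moved by 0.96 to 0.94. Lgals1 was the only one of the 8 with no overlap between no-Cre crushed and no-Cre uncrushed libraries, both crushed values being lower. For comparison, 19.0% of all genes had both crushed values lower in no-Cre mice. Its log2 fold change was -0.80 ± 0.37 (unadjusted p = 0.0543, edgeR adjusted p = 0.401).

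The crush effect with Cre minus that without Cre tests whether the response depended on the tag. None of the 15208 genes passed it in edgeR (0.0%), and none of the 8 had an unadjusted p under 0.05, while DESeq2 called 15 of all genes and 0 of the 8. The largest values among well-covered genes were 0.80 ± 0.45 for Lgals1 (adjusted p = 0.886) and 0.58 ± 0.48 for S100a10 (adjusted p = 0.924). The Lgals1 value was made up of 0.00 with Cre and -0.80 without, where no-Cre levels rest on 20 to 30 counts a library. For Anxa6 the difference was 0.08 ± 0.33 (interval -0.64 to 0.81).

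**Figure D3:**
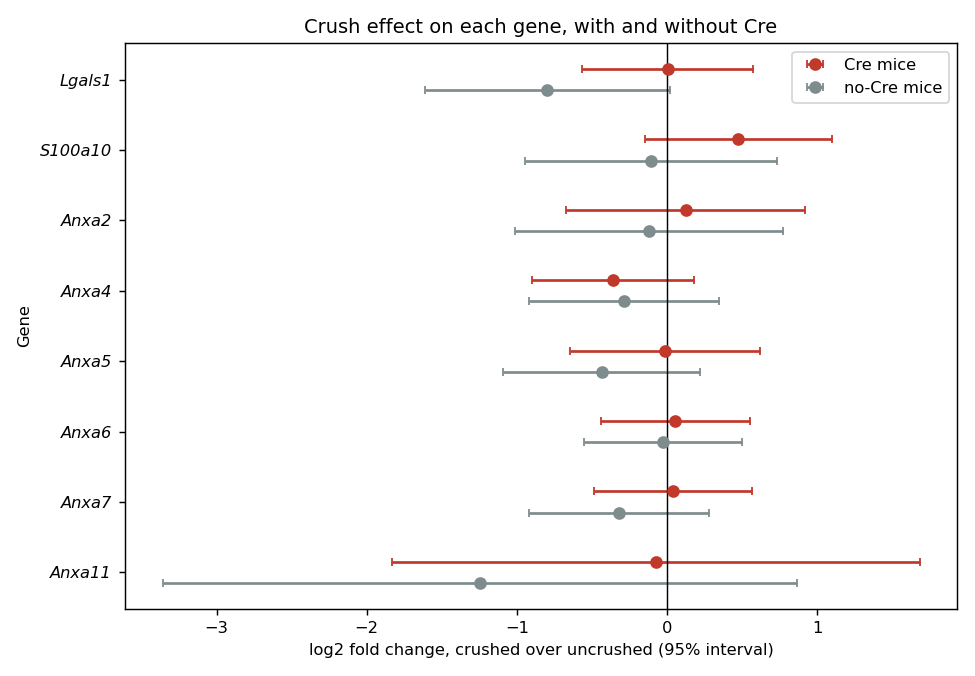
Log2 fold change of crushed over uncrushed for each gene, in Cre mice and in no-Cre mice, with 95% intervals from the edgeR fit. Every interval includes 0, the Cre values lie between -0.36 and 0.48, and the no-Cre intervals are wider for each gene.

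The genes most alike to Lgals1 across the 8 libraries were Chodl, Slc10a4, Slc5a7, Calcb and Calca. Likeness is the root mean square difference of log2 CPM (pseudocount 0.5 CPM), each gene centred on its own mean over the 8 libraries, so that 0 is an identical pattern. It was 0.232 for Chodl and 0.342 for Slc10a4. Chodl encodes a lectin-like membrane protein that marks fast motor neurons, Slc5a7 the choline transporter, and Calca and Calcb the calcitonin gene-related peptides. S100a10 stood 9th closest to Lgals1 at 0.506, and Anxa6 stood 29th at 0.721. The genes most alike to S100a10 were Tpd52l1 (0.240), Sncg (0.242), Cd24a (0.263), Spp1 (0.263) and Hspb8 (0.283). Anxa2 was closest to Uchl1 (0.210), Stmn2, Rgs4, Rab3b and Cd24a, and Anxa6 to Hspb8 (0.167), Stk32a, Sept9, Susd2 and Dkk3. Anxa5 and Anxa11 lay far from Lgals1, at ranks 1575 and 3923. The gap between Cre and no-Cre libraries enters all these distances, and it was known when the 8 genes were chosen.

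Most other members of the same families were not called higher with Cre, which was also true of most genes tested. Of 6 other annexins, 4 could be tested. In crushed mice 1 was called higher (Anxa10, taken up below) and 2 lower, and in uncrushed mice 0 higher and 2 lower. Over all genes 21.6% were called higher and 21.3% lower in crushed mice, and 20.6% and 21.9% in uncrushed mice. Anxa9 was not called in either. Anxa1, an anti-inflammatory annexin of glia and leukocytes, was at 0.13 and 0.55 CPM in Cre crushed cords and 1.90 and 4.66 CPM in no-Cre crushed cords. It was at 0.13 and 0.39 CPM in Cre uncrushed and 10.1 and 3.74 CPM in no-Cre uncrushed cords. It was called lower with Cre in both, by -3.25 ± 0.94 in crushed (edgeR adjusted p = 0.0171) and -4.58 ± 1.02 in uncrushed mice (adjusted p = 0.00470). The crushed call was lost without Cre animal 35, without no-Cre animal 58 and with age as a covariate (adjusted p up to 0.156 over all alternatives). The uncrushed call was lost without both libraries of contradictory genotype (adjusted p = 0.0716). Anxa3 was called lower in both as well, at an adjusted p of 0.0467 in crushed mice that held in 7 of 15 alternatives. In uncrushed mice its log2 fold change was -3.18 and became -0.95 without no-Cre uncrushed animal 6.

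Of 15 other S100 genes, 9 were tested, and none was called higher with Cre. In crushed cords 6 were called lower (21.3% of all genes were), and in uncrushed cords 5 (21.9%). The crushed count was 2 higher and 3 lower without no-Cre animal 58, and 4 lower without Cre animal 35 or 52. Each of 3 other fits, namely DESeq2, edgeR on unfiltered genes and edgeR scaled by library totals, gave 2 higher and 6 lower. S100a8 and S100a9, the calprotectin chains of neutrophils, were called lower in crushed mice, with log2 fold changes of -4.36 ± 0.64 and -4.30 ± 0.56 (edgeR adjusted p = 0.000455 and 0.000268). S100a16 fell by 2.67 on the log2 scale in crushed mice (adjusted p = 0.00124). The medians of the 9 were -2.25 in crushed and -3.17 in uncrushed mice. S100b, best known from astrocytes, was high in all groups. It ran from 284 to 491 CPM in the 4 Cre libraries and from 108 to 360 CPM in the 4 no-Cre libraries.

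Among 9 other galectins and galectin-related genes, 5 were tested. Lgals8, a galectin that senses damaged vesicles, had 118 and 106 CPM in Cre crushed and 35.8 and 29.0 CPM in no-Cre crushed cords. It had 86.5 and 102 CPM in Cre uncrushed and 31.6 and 30.5 CPM in no-Cre uncrushed cords. Like 21.6% of all genes in crushed and 20.6% in uncrushed mice it was called higher with Cre, by 1.79 ± 0.22 in crushed (edgeR adjusted p = 0.000214) and 1.61 ± 0.23 in uncrushed mice (adjusted p = 0.000421). Lgalsl was called lower in crushed mice, at an adjusted p of 0.0416 that held in 7 of 15 alternatives.

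**Figure D4:**
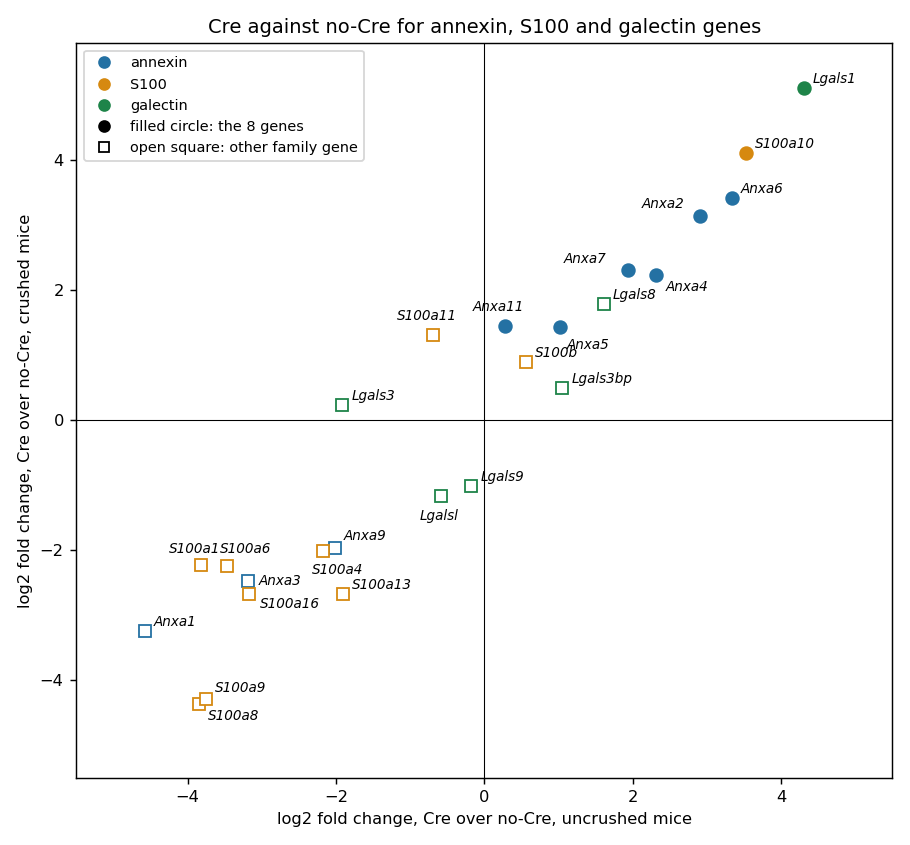
Log2 fold change of Cre over no-Cre in crushed mice (vertical axis) against uncrushed mice (horizontal axis) for annexin, S100 and galectin genes that were tested, Anxa10 left out. The 8 genes (filled) lie in the upper right, chosen with these values known, and most other family genes (open) lie in the lower left.

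Anxa10 and S100a11 were picked out after their values were seen. Anxa10, an annexin best known from stomach, had 46 and 23 counts in the Cre crushed libraries (2.91 and 1.82 CPM) and 0 counts in each of the other 6. Taking 3 counts over a group as the floor, it was at least 14.5-fold higher in Cre crushed than in Cre uncrushed cords, where the edgeR adjusted p was 0.214. It was at least 10.8-fold higher than in no-Cre crushed cords, with an edgeR adjusted p of 0.0119. That call held in 11 of 15 alternatives. It was lost with age as a covariate and when Cre animal 35 or no-Cre animal 51 or 58 was left out. S100a11, a partner of annexin A1, had 25.8 and 12.9 CPM in Cre crushed cords and 4.21 and 11.5 CPM in no-Cre crushed cords. It had 4.68 and 6.33 CPM in Cre uncrushed cords and 11.3 and 6.94 CPM in no-Cre uncrushed cords. Both Cre crushed libraries were above both Cre uncrushed ones, by 1.80 ± 0.50 on the log2 scale, which was not called (adjusted p = 0.249 by edgeR).

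Promoter windows were searched for the AP-1 motif TGANTCA, which is bound by dimers of Fos, Jun and Atf proteins and reads the same on both strands. RefSeq promoter windows on GRCm38.p6 were at hand for 5 of the 8 genes (Anxa2, Anxa4, Anxa5, Anxa7 and Anxa11). In the 250 bases before the start, 1 of these 5, Anxa2, held a match. Of 32851 windows from 27025 gene symbols, 6.75% held one. That share is per window and the counts here are per gene, and a gene can have several windows, so they are not directly comparable. Across the annexin, S100 and galectin families 4 of 31 genes with a window held one, namely Anxa2, Anxa10, S100a11 and S100a16. The windows of Anxa2 and of the genes picked out above are shown to place the motif, with the match in capitals, each in the direction of its gene. That of Anxa2 covers chr9:69453433-69453619 on the plus strand, ending 64 bases before the RefSeq start, where a GENCODE transcript begins, with its match 95 bases upstream. The Anxa10 window covers chr8:62123194-62123443 on the minus strand with matches 180 and 16 bases upstream, and the S100a11 window covers chr3:93520246-93520495 on the plus strand with matches 136 and 38 bases upstream.
Anxa2: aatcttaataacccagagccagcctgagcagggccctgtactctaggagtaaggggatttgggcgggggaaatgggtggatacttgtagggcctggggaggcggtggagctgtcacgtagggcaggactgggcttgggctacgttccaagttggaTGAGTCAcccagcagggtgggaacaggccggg
Anxa10: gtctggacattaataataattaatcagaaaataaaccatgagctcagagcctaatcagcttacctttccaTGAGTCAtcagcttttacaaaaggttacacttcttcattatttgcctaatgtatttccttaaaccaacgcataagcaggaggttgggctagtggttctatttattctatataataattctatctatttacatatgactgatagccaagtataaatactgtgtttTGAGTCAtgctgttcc
S100a11: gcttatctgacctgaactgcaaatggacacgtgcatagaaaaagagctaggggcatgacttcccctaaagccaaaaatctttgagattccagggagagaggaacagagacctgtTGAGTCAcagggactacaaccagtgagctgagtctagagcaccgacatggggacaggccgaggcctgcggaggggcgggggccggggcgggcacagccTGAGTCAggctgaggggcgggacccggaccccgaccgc
Each printed match is the same word, TGAGTCA. The 3 windows thus range from a gene at 149 to 189 CPM in Cre cords whether crushed or not, to a gene with counts in Cre crushed cords alone, and a match is a description of the sequence, not evidence of binding.

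Of 15 partners and cargoes of S100a10 and annexin A2, 12 were tested, with 2 called higher and 3 lower with Cre in crushed mice and 2 higher and 2 lower in uncrushed mice. Over all genes 21.6% were called higher and 21.3% lower in crushed mice, and 20.6% and 21.9% in uncrushed mice, so the counts lie near or below the background. The count lower in crushed mice was 1 without Cre crushed animal 35 and 1 with age as a covariate. The count higher in uncrushed mice was 1 without no-Cre uncrushed animal 4, and that of lower ones 1 with library size alone. Kcnk3, the TASK-1 potassium channel that S100a10 binds, had 46.5 and 47.0 CPM in Cre crushed and 8.14 and 7.5 CPM in no-Cre crushed cords. It had 66.0 and 58.8 CPM in Cre uncrushed and 5.85 and 10.4 CPM in no-Cre uncrushed cords, and was called higher with Cre by 2.58 ± 0.28 in crushed and 2.90 ± 0.30 in uncrushed mice. Ahnak, the large scaffold that the S100a10 and annexin A2 complex anchors at the membrane, went the other way. It had 84.9 and 70.7 CPM in Cre crushed and 399 and 508 CPM in no-Cre crushed cords, a log2 fold change of -2.54 ± 0.37 (edgeR adjusted p = 0.000445). In uncrushed mice Ahnak was called lower by -3.14 ± 0.38.

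Of 15 genes for plasma membrane repair, 14 were tested, and 9 were called higher and 4 lower with Cre in crushed mice, against 8 and 4 in uncrushed mice. Over all genes the shares were 21.6% higher and 21.3% lower in crushed mice, and 20.6% and 21.9% in uncrushed mice. The count lower in crushed mice was 1 without Cre animal 35, Cre animal 52 or no-Cre animal 51, and also 1 with library size alone or age as a covariate, and it was 2 without no-Cre animal 58. Without both libraries of contradictory genotype the count in uncrushed mice was 5 higher and 4 lower, and the count of lower ones was 2 without Cre uncrushed animal 10 or no-Cre uncrushed animal 6. The list's median was 1.27 in crushed and 1.01 in uncrushed mice. Dysf, which encodes the repair protein dysferlin, had 39.4 and 37.1 CPM in Cre crushed and 7.87 and 7.0 CPM in no-Cre crushed cords. It was called higher by 2.36 ± 0.25 in crushed (edgeR adjusted p = 0.000118) and 2.60 ± 0.26 in uncrushed mice. The calpain genes Capn1 and Capn2, whose calcium-activated proteases cut cytoskeleton at wounds, were called higher in crushed mice by 3.13 ± 0.36 and 2.18 ± 0.26. Among the repair genes called lower was Ahnak, by -2.54 ± 0.37 in crushed and -3.14 ± 0.38 in uncrushed mice. Another was Cav1, by -2.46 ± 0.48 in uncrushed mice (edgeR adjusted p = 0.00217).

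Capns1, the shared small subunit of these calpains, had 535 and 353 CPM in Cre crushed and 139 and 227 CPM in Cre uncrushed cords. Its crush effect in Cre mice, 1.28 ± 0.29, was not called (edgeR adjusted p = 0.172, and 2 of 15 alternatives called it). It stood at 71.4 and 68.0 CPM in no-Cre crushed and 77.6 and 65.2 CPM in no-Cre uncrushed cords. No repair gene, partner gene, galectin-1 ligand or other family gene was called with crush by edgeR in Cre mice or in no-Cre mice, in the fit reported here. Besides Capns1, the genes Anxa10, S100a11 and Fn1, a galectin-1 ligand, were each called in Cre mice in 1 of the alternatives, the fit with no filter on low counts. Ahnak was called in no-Cre mice in 1, with library size alone (log2 fold change 1.27), where the median of all genes was 0.94.

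Of 11 glycoproteins that galectin-1 binds, 10 were tested, with 3 called higher and 3 lower with Cre in crushed mice and 4 higher and 3 lower in uncrushed mice. Of all genes, 21.6% were called higher and 21.3% lower in crushed mice and 20.6% and 21.9% in uncrushed mice. In uncrushed mice the count of higher ones was 3 without Cre animal 3 and 6 without no-Cre animal 6, and library size alone gave 6 higher and 1 lower. Thy1, a neuronal surface glycoprotein, had 921 and 715 CPM in Cre crushed and 112 and 171 CPM in no-Cre crushed cords, a log2 fold change of 2.53 ± 0.29 (edgeR adjusted p = 0.000153). Itgb1, the beta-1 integrin chain, was called higher by 1.73 ± 0.30 in crushed and 1.79 ± 0.31 in uncrushed mice. Lamc1, a laminin chain of the matrix, was called lower by -1.43 ± 0.27 in crushed and -1.75 ± 0.28 in uncrushed mice. The uncrushed call was lost with library size alone (edgeR adjusted p = 0.0504), and the crushed call held in 15 of 15 alternatives.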

How the data were processed

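Ribosome-associated mRNA was sequenced from 8 spinal cords, 2 animals in each of 4 groups. Per the submitters' processing notes, the authors used Bowtie2 2.2.0 and RSEM 1.2.12, and their deposited gene tables hold an expected count, a TPM and an effective length per gene. Expected counts are estimated reads, not scaled for depth or length, and were rounded here. The deposited TPM were used for levels of different genes within a library. The deposited effective length, of the type other, is in bases. The sources used here do not give the build and annotation behind the tables. Symbols were found for 37607 of 38924 identifiers (96.6%).

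The count model was that of edgeR 4.0.16 (R 4.3.3), with filterByExpr (minimum count 10, minimum total 15), TMM scaling and a quasi-likelihood fit with 1 mean per group over all 8 libraries (4 residual degrees of freedom). The test was two-sided with Benjamini-Hochberg adjustment over 15208 genes. The Cre crushed libraries enter both the crush and the Cre comparison. Values after ± are standard errors for log2 fold changes (the estimate over the root of its F statistic) and standard deviations for levels. Floors of 3 counts cover counting error only. The labels do not say more about replicates than the animal number, and with 2 animals a group an exact permutation test could not pass.

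Alternatives were DESeq2 1.42.0, its size factors in edgeR, library size alone, no filter, only the compared groups, leaving out both libraries of contradictory genotype, an age covariate and each library left out in turn. The scripts were tested on simulated data. The 8 genes and all gene lists were chosen with earlier results of these data known. Apart from cell type markers, genes were named out of a set, and not every gene of that set is shown. It held the 8 genes and the 5 most alike genes for Lgals1, S100a10, Anxa2 and Anxa6. From each list it held up to 6 called genes with the smallest p and 2 uncalled genes with the highest level.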

Additional observations from a re-analysis of the deposited data

Results flagged for a closer look

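For S100a11 the Cre crushed libraries were both above the no-Cre crushed libraries while the Cre uncrushed libraries were both below the no-Cre uncrushed libraries. The fold changes were 1.31 in crushed and -0.70 in uncrushed mice, and their difference of 2.01 (log2) was not called (edgeR adjusted p = 0.83).

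Npy moved in opposite directions in the same way. It had 15.7 and 7.60 CPM in Cre crushed, 0.95 and 2.17 CPM in no-Cre crushed, 0.39 and 0.39 CPM in Cre uncrushed and 4.29 and 3.47 CPM in no-Cre uncrushed cords. The difference between the crush effects with and without Cre was 6.17 (log2), the same number as that between the Cre effects in crushed and uncrushed mice, and was not called (edgeR adjusted p = 0.386), though 2 of 14 alternatives called it.

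Sox11 had 1.58 and 1.90 CPM in Cre crushed, 1.49 and 0.83 CPM in no-Cre crushed, 2.60 and 2.24 CPM in Cre uncrushed and 0.00 and 0.27 CPM in no-Cre uncrushed cords. Its crush effects with and without Cre differed by -3.27 (log2), which was not called (edgeR adjusted p = 0.83). None of the 8 genes moved in opposite directions between groups in this way.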

How the results depend on the processing

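No paired analysis was possible because the groups share no animal number. None of the 8 genes was called for crush with Cre, for crush without Cre or for the crush by Cre interaction in any alternative run (15 for each crush effect, 14 for the interaction), and no called value of a named gene reversed. With library size alone the medians of the 8 were 0.46 for crush with Cre and 0.62 for crush without Cre, where the medians of all genes were 0.47 and 0.94. The 8 stayed positive for Cre against no-Cre in every alternative except Anxa11 in uncrushed mice, at -0.37 without both libraries of contradictory genotype and -0.32 without no-Cre uncrushed animal 4.

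Counts of called genes over the whole table depended on the processing, and the cause was not tested. For crush with Cre (11 genes) they were 281 with no filter, 126 with only the groups compared, 5 without both libraries of contradictory genotype, 3 with age as a covariate, 159 in DESeq2, and 7 to 15 leaving out 1 library. For crush without Cre (11) they were 1 with DESeq2 size factors in edgeR, 1204 with library size alone (1199 higher and 5 lower, against 3 and 8), 338 with no filter, 2 with only the groups compared, 0 without both libraries, 2 with age, 107 in DESeq2, and 0 to 7 leaving out 1 library. The crush by Cre interaction (0) had 87 with no filter and 15 in DESeq2. For Cre against no-Cre, crushed (6521) there were 2758 with age and 2733 to 7392 leaving out 1 library. For Cre against no-Cre, uncrushed (6468) there were 3299 without both libraries and 3802 to 6512 leaving out 1 library. Library size alone gave 4753 higher and 1463 lower calls for Cre against no-Cre, uncrushed, against 3137 and 3331, and 8 higher and 3 lower for crush with Cre, against 6 and 5.

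Depth limits Anxa11, Anxa1, Anxa3 and Anxa10, and the no-Cre levels of Lgals1 and S100a10.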
